A study of Homo sapiens with 2 samples.

Results

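The let-7 and miR-98 seed family was examined in HepG2 cells, a human hepatocellular carcinoma line, in which the adenoviral vector Ad-uc.372 was compared with the control vector Ad-NC at 48 h. The family comprised hsa-let-7a-5p, hsa-let-7b-5p, hsa-let-7c-5p, hsa-let-7d-5p, hsa-let-7e-5p, hsa-let-7f-5p, hsa-let-7g-5p, hsa-let-7i-5p and hsa-miR-98-5p, chosen by name and written below without the prefix for human, or 9 of the 2549 human miRNAs with probes on the Agilent human miRNA Microarray V21.0. Both groups carried an adenovirus, and both RNAs were labelled with Cy3, and their arrays shared a slide and a scan. Each group was 1 array, so no difference has a replicate check, no test across samples was made, and precision is limited by how few arrays there were. The title of the deposited data and the text of the study name Ad-uc.372 as the vector that overexpresses the ultraconserved transcript uc.372, whereas the axes of one scatter plot of the study carry the suffix of its inhibitor vectors. The directions below follow the title, and the array carries miRNA probes only, so it cannot check the level of uc.372.

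miRNAs of the let-7 family are cut from hairpin precursors and guide Argonaute to messenger RNAs that pair with the seed, the stretch near the 5′ end of the miRNA. They are abundant in differentiated cells, where they repress growth-promoting genes such as HMGA2, MYC and RAS family members, and the RNA-binding proteins LIN28A and LIN28B block the maturation of most of them by binding the hairpin. In liver they are studied as tumour suppressors and as regulators of insulin signalling and lipid metabolism.

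The mature sequences are printed here because the members differ by so few bases that shared signal between their probes had to be considered. They are taken from RefSeq, in which all 9 names were found, and the capitals mark the seed, bases 2 to 8.
let-7a-5p: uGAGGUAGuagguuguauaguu
let-7b-5p: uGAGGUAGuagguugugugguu
let-7c-5p: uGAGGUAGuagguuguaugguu
let-7d-5p: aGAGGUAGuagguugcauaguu
let-7e-5p: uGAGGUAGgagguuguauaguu
let-7f-5p: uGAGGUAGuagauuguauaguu
let-7g-5p: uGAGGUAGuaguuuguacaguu
let-7i-5p: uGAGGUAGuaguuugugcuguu
miR-98-5p: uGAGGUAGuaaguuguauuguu

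With positions counted from 1 at the 5′ end and the base of let-7a-5p given first, let-7c-5p differs by A19G, let-7e-5p by U9G and let-7f-5p by G12A, each a single substitution. let-7b-5p differs from let-7a-5p by A17G and A19G, let-7d-5p by U1A and U16C, let-7g-5p by G12U and U18C, and miR-98-5p by G11A and A19U. let-7i-5p differs by G12U, A17G, U18C and A19U. Of all pairs of members, 4 are 1 substitution apart, among them let-7b-5p and let-7c-5p.

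The members come from 12 hairpins, placed here on GRCh38.p14 from RefSeq, since the array files give no positions. let-7a-5p has 3 hairpins and let-7f-5p has 2, and the array cannot tell them apart. MIRLET7A1 (chr9:94175957-94176036, plus strand), MIRLET7F1 (chr9:94176347-94176433, plus strand) and MIRLET7D (chr9:94178834-94178920, plus strand) lie in the span of MIRLET7A1HG. MIRLET7A3 (chr22:46112749-46112822, plus strand) and MIRLET7B (chr22:46113686-46113768, plus strand) lie in the span of MIRLET7BHG, a long non-coding RNA gene. MIR98 (chrX:53556223-53556341, minus strand) and MIRLET7F2 (chrX:53557192-53557274, minus strand) lie in the span of HUWE1, which encodes a ubiquitin ligase. MIRLET7A2 (chr11:122146522-122146593, minus strand) lies in the span of MIR100HG, MIRLET7C (chr21:16539828-16539911, plus strand) in that of MIR99AHG, MIRLET7E (chr19:51692786-51692864, plus strand) in that of SPACA6, MIRLET7G (chr3:52268278-52268361, minus strand) in that of WDR82 and MIRLET7I (chr12:62603686-62603769, plus strand) in that of MIRLET7IHG.

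Each array held 50980 spots for miRNAs, of which 7.77% with Ad-NC and 8.72% with Ad-uc.372 were well above background, that is, past a limit that the scanner software sets on each array. The lowest signal so marked was 21.1 with Ad-NC and 17.3 with Ad-uc.372. A probe was called measured when at least 50% of its spots were well above background on each array, and 229 miRNAs (8.98%) had such a probe. Of 5 miRNAs listed for HepG2 cells and liver, 4 were measured on both arrays. miR-122-5p, the most abundant miRNA of hepatocytes, was not well above background on either, with mean signals of its brighter probe of 5.09 and 5.08. Of 9 miRNAs listed as markers of blood cells, endothelium, smooth muscle, neurons and muscle, 0 were measured, and the mean signals of their brightest probes ranged from -1.27 to 9.94 with Ad-NC and from -1.19 to 6.97 with Ad-uc.372.

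Of the 9 members, 8 were measured on both arrays, through 14 of the 18 probes of the family. Each probe had 10 spots, and spots marked as outliers by the software were left out, 7 of 180 with Ad-NC and 10 of 180 with Ad-uc.372. Signals of spots are given before scaling. For the differences, the log2 signals of the spots of each probe were averaged, then those of the measured probes of each miRNA, and the 75th percentile of the measured probes was subtracted on each array. This scaling moved every log2 difference by -0.23. The error given is the combined SD between spots of both arrays, which is technical.

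After scaling, 7 of the 8 measured members were lower with Ad-uc.372 than with Ad-NC, against 73.8% of all 229 measured miRNAs. The median log2 difference of the members was -0.35 and that of all measured miRNAs -0.17. Without scaling, 6 of the 8 members were lower, against 42.4% of all, and these medians were -0.12 and 0.060. 1 member, let-7b-5p, was at least 1.5-fold lower, against 2.62% of all measured miRNAs, and 0 were at least 1.5-fold higher, against 1.31%. For 5 of the 8 members the difference was farther from 0 than its spot SD, against 42.8% of all. Before scaling this held for 2 of the 8, let-7b-5p and let-7e-5p, against 32.3% of all.

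**Figure D1:**
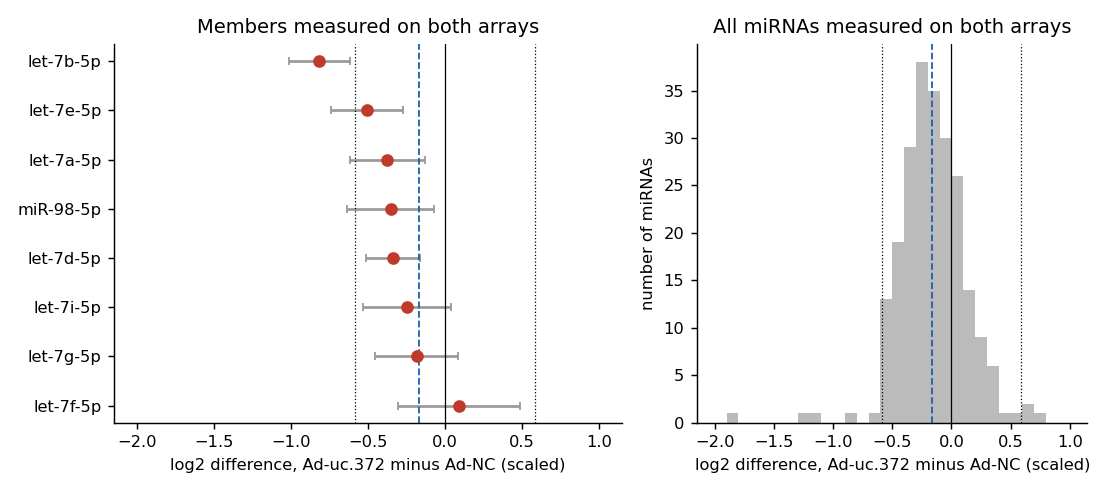
Left, the scaled log2 difference of each measured member (points) with the combined spot SD (bars). Right, the number of miRNAs at each difference among all 229 measured. Dotted lines mark 1.5-fold and the blue dashed line the median of all, -0.17; 7 of the 8 points lie to its left.

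let-7b-5p, encoded downstream of let-7a-3 in the same host gene, had the lowest value of the family, a log2 difference of -0.82 ± 0.20 (spot SD), or 1.76-fold, and stood 4th from the lowest among the 229. Its brighter probe ranged from 40.9 to 61.8 over 9 spots with Ad-NC, with a median of 54.3. With Ad-uc.372 it ranged from 31.3 to 37.3 over 7 spots, with a median of 36.2. None of these spots overlapped between the arrays, before or after scaling. The software had marked 3 spots of this probe with Ad-uc.372 as outliers, and 1 of them, at 44.8, lay above the lowest kept spot with Ad-NC before scaling. Its dimmer probe lay at the limit and did not count as measured, with 7 of 10 spots well above background with Ad-NC and 3 of 10 with Ad-uc.372. The signal of that probe ranged from 14.7 to 37.6 (median 25.6) and from 8.82 to 19.4 (median 16.5). The value of let-7b-5p therefore rests on its brighter probe, with a log2 difference of -0.59 before scaling.

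let-7e-5p, from the cluster that also holds miR-99b and miR-125a, was next, with a log2 difference of -0.51 ± 0.23, the 18th lowest. Its brighter probe ranged from 84.9 to 109.3 (median 95.8) with Ad-NC and from 60.6 to 80.8 (median 74.0) with Ad-uc.372, without overlap before scaling. Its dimmer probe ranged from 42.7 to 57.7 (median 49.5) and from 36.7 to 57.2 (median 44.8), and these ranges overlapped.

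let-7a-5p, the member closest in sequence to several others, had a log2 difference of -0.38 ± 0.25. Its brighter probe ranged from 1256 to 1628 (median 1419) with Ad-NC and from 915.6 to 1494 (median 1204) with Ad-uc.372, and 4 of the 10 spots with Ad-uc.372 overlapped the range with Ad-NC. Its dimmer probe ranged from 536.0 to 638.2 (median 547.8) over 8 spots and from 406.1 to 644.7 (median 553.2) over 10. The log2 differences of the brighter and the dimmer probe of let-7a-5p were -0.24 and -0.055 before scaling, and -0.47 and -0.28 after it.

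let-7d-5p, from the same transcript as let-7a-1 and let-7f-1, had a log2 difference of -0.34 ± 0.18. Its brighter probe ranged from 114.4 to 145.8 (median 123.5) with Ad-NC and from 96.9 to 114.0 (median 109.0) with Ad-uc.372, without overlap. Its dimmer probe ranged from 28.5 to 39.1 (median 37.0) and from 30.9 to 38.7 (median 34.8), so that all of its spots with Ad-uc.372 lay within the range with Ad-NC.

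let-7i-5p and let-7g-5p, each cut from a single hairpin, had log2 differences of -0.25 ± 0.28 and -0.19 ± 0.27, both within their spot SD. The brighter probe of let-7i-5p ranged from 144.8 to 185.6 (median 163.6) with Ad-NC and from 124.8 to 146.1 (median 132.7) with Ad-uc.372, and its dimmer probe from 39.5 to 80.4 (median 64.5) and from 65.0 to 82.8 (median 70.3). The brighter probe of let-7g-5p ranged from 512.5 to 737.5 (median 637.3) and from 503.8 to 594.7 (median 575.1), and its dimmer probe from 76.0 to 133.7 (median 112.4) and from 93.6 to 165.1 (median 129.5). In both miRNAs the brighter probe was lower and the dimmer probe higher with Ad-uc.372 before scaling.

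let-7f-5p, a single base from let-7a-5p, was the 1 member with a positive value, a log2 difference of 0.090 ± 0.40. Its probes disagreed. The brighter ranged from 993.2 to 1153 (median 1096) with Ad-NC and from 744.4 to 1042 (median 972.1) with Ad-uc.372. The dimmer ranged from 14.4 to 46.1 (median 26.1), with 6 of 10 spots well above background, and from 37.8 to 69.6 (median 48.4), with 9 of 9. After scaling these gave log2 differences of -0.43 and 0.61, the second past 1.5-fold, so the sign of let-7f-5p rests on the dimmer probe.

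miR-98-5p, which shares the HUWE1 locus with let-7f-2, lay at the limit. Its 1 measured probe ranged from 10.6 to 31.0 (median 21.2) with Ad-NC, with 5 of 10 spots well above background, and from 17.2 to 25.6 (median 20.9) with Ad-uc.372, with 8 of 9. The log2 difference of -0.35 ± 0.28 includes dim spots raised to the limit of each array, and the limit itself was 0.52 lower with Ad-uc.372 after scaling (log2 difference -0.52). The mean signals before scaling, 21.2 ± 5.28 (SD) and 21.1 ± 3.16, gave a log2 difference of -0.011.

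**Figure D2:**
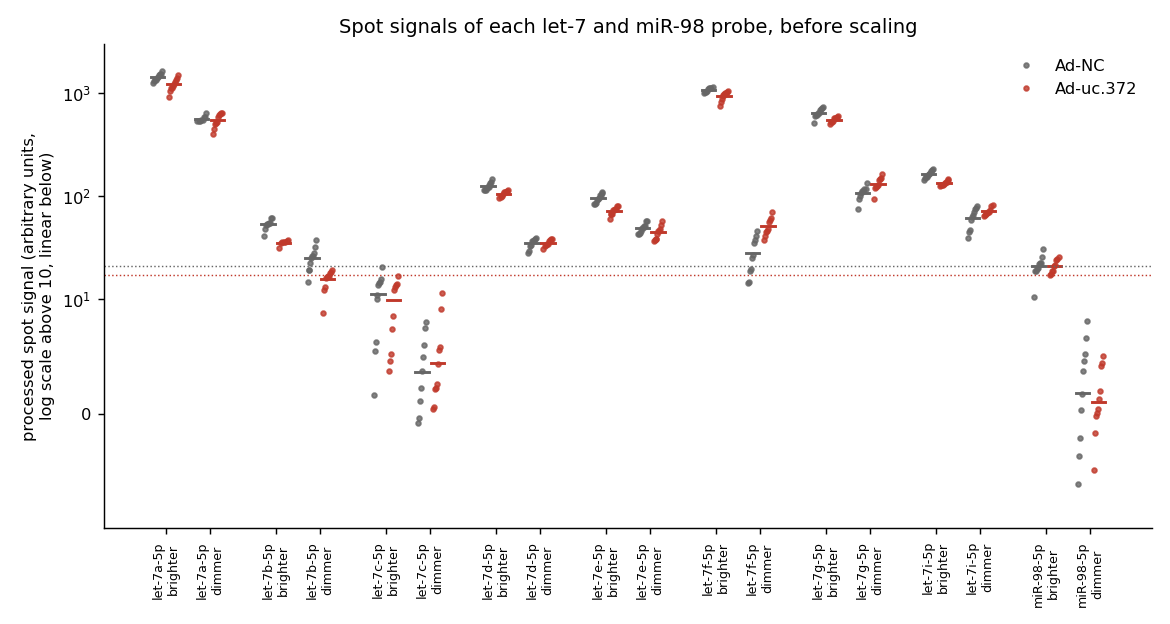
Processed signal of each spot (points) and the mean over spots (short lines) for the 18 probes of the family, before scaling and without outlier spots, with Ad-NC in grey and Ad-uc.372 in red; the axis is logarithmic above 10 and linear below. Dotted lines mark the lowest signal well above background, 21.1 and 17.3. The red spots of the brighter probes of let-7b-5p, let-7d-5p and let-7e-5p lie wholly below the grey ones, and the spots of let-7c-5p lie below the dotted line of their own array.

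let-7c-5p was the member not measured. Over both probes, 0 spots were well above background on either array. Its brighter probe had a mean signal of 11.3 ± 5.62 (SD over 10 spots) with Ad-NC and 9.94 ± 4.59 with Ad-uc.372, and its dimmer probe 3.62 ± 3.26 and 4.46 ± 3.67. let-7c-5p is a single base from let-7a-5p, whose brighter probe had mean signals of 1428 and 1216 on the same arrays, and a single base from let-7b-5p. The probes of let-7c-5p thus showed at most this low signal from let-7a-5p and let-7b-5p together. The dimmer probe of miR-98-5p, 2 substitutions from let-7a-5p, likewise had 0 of 10 spots well above background on each array. Its mean signals were 1.86 with Ad-NC and 1.07 with Ad-uc.372. The measured probes of the other members give no such reading. How much of the signal of let-7e-5p or let-7f-5p came from let-7a-5p was not tested. Signals of different probes do not rank the abundance of the members.

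The order of the probes was compared where both were measured, which left out let-7b-5p, let-7c-5p and miR-98-5p. In each of the 6 members with both probes measured, the brighter probe had the lower difference, against 66.9% of the 157 miRNAs with several measured probes, so this order was common on these arrays. The brighter probes of the 6 members gave log2 differences before scaling between -0.41 (let-7e-5p) and -0.20 (let-7f-5p), and the dimmer ones between -0.15 (let-7e-5p) and 0.83 (let-7f-5p). The medians were -0.24 and 0.13 for the members, and 0.034 and 0.11 for all 157 miRNAs. let-7f-5p had the largest gap of the 157 in this direction, with a value of -1.03 for the brighter minus the dimmer probe, and let-7a-5p had the smallest of the 6, -0.19. Ranked by the brighter probe alone, let-7e-5p was the 2nd lowest of the 157 miRNAs, let-7i-5p the 12th, let-7a-5p the 21st, let-7d-5p the 22nd, let-7g-5p the 29th and let-7f-5p the 32nd. By the dimmer probe alone, the same members, in the same order, were the 15th, 113th, 46th, 62nd, 125th and 154th lowest. The gap in log2 level between the probes ranged from 0.84 (let-7e-5p) to 4.73 (let-7f-5p), and its part in the result was not tested.

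**Figure D3:**
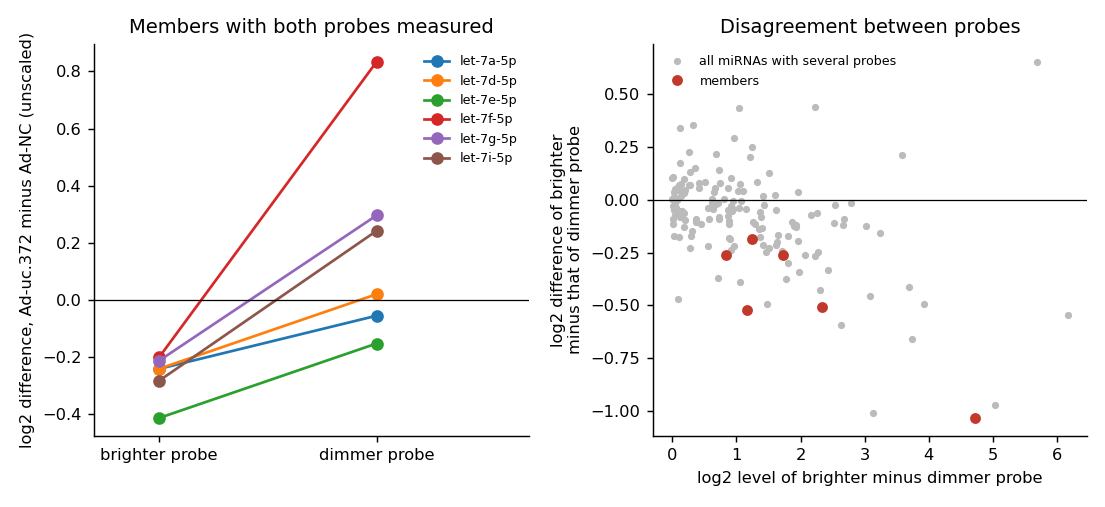
Left, the log2 difference before scaling on the brighter and the dimmer probe of the 6 members with both measured; every line rises from left to right. Right, the difference of the brighter minus that of the dimmer probe against the gap between their log2 levels, for the 157 miRNAs with several measured probes (grey) and the members (red), which lie between -1.03 and -0.19.

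Of the probes measured on both arrays, 6 of the 14 of the family had every spot with Ad-uc.372 below every spot with Ad-NC after scaling, against 20.1% of all measured probes. Before scaling these were 3 of 14, against 4.58%. With the outlier spots kept, the counts were 5 of 14 after scaling and 2 of 14 before it. The share of all measured probes was not counted with these spots kept, so these counts have no background share. The 6 were the brighter probes of let-7b-5p, let-7d-5p, let-7e-5p, let-7f-5p, let-7g-5p and let-7i-5p. The reverse, every spot with Ad-uc.372 above every spot with Ad-NC, was seen in 0 of the 14 probes after scaling, against 1.53% of all, and in 0 before it, against 6.11%.

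The log2 values that the authors deposited, 1 per miRNA and array, gave a narrower picture. All 8 members detected by the software on both arrays were lower with Ad-uc.372, against 80.3% of the 279 miRNAs so detected, with a median log2 difference of -0.49 against -0.26 for all. let-7b-5p had -0.95 and let-7e-5p -0.64, the 2 members past 1.5-fold, against 8.60% of the 279. let-7d-5p had -0.51, let-7a-5p -0.50, let-7f-5p -0.48, let-7g-5p -0.46, let-7i-5p -0.46 and miR-98-5p -0.34. let-7f-5p changed sign here because the deposited value follows the total signal of a miRNA, which sums its probes: with Ad-NC the total of 156.2 was made of 152.3 from the brighter probe and 3.96 from the dimmer one. let-7c-5p was not detected on either array, and its deposited values of -4.71 and -5.04 are those of every undetected miRNA.

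The other RNAs of the same seed and hairpins gave little signal. Besides the members, miR-4458 and miR-4500 carry the same bases 2 to 8 in RefSeq, and neither was well above background. Of 11 opposite arms of the hairpins, 10 had probes on the array under these names and 0 were well above background with either vector. The highest mean signal of any of their probes was 7.11 with Ad-NC (let-7f-1-3p) and 6.99 with Ad-uc.372 (let-7b-3p).

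Neighbouring hairpins with other seeds were mostly dim as well. Of 13 such miRNAs, 10 had no measured probe with either vector, among them both arms of miR-100 and miR-99a and miR-125b-5p. miR-4763-3p, whose hairpin ends 29 bases before that of let-7b, had a log2 difference of 0.17 ± 0.36 after scaling. Its brighter probe ranged from 19.6 to 35.6 (median 27.4) with Ad-NC and from 27.7 to 46.1 (median 35.0) with Ad-uc.372, higher with Ad-uc.372, with overlap between the arrays, where let-7b-5p was lower. miR-125a-5p, from the hairpin 390 bases after that of let-7e, had -0.42 ± 0.30 on 1 probe, which ranged from 14.7 to 30.4 (median 23.2) and from 15.5 to 27.0 (median 20.6), so that the ranges overlapped and spanned the limit. miR-125a-3p was well above background with Ad-uc.372 only, on all 3 of its probes, with 1 or 2 spots of each past the limit with Ad-NC. The limit was lower with Ad-uc.372, and the scaled log2 differences of these probes were -0.15, 0.026 and 0.014. These differences include dim spots with Ad-NC raised to the limit of that array. Before scaling and without that step, the mean signals of the same probes were 15.7, 20.3 and 18.4 with Ad-NC. With Ad-uc.372 they were 22.8, 26.1 and 25.7, higher on each probe. The software detected miR-125a-3p on both arrays, with a log2 difference of 0.12 in the deposited values.

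The 3 other miRNAs whose scaled log2 difference lay nearest to the median of the family over these 2 arrays were miR-130a-3p and miR-324-5p, each at -0.35, and miR-455-3p, at -0.34. They were picked by that value alone.

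**Figure D4:**
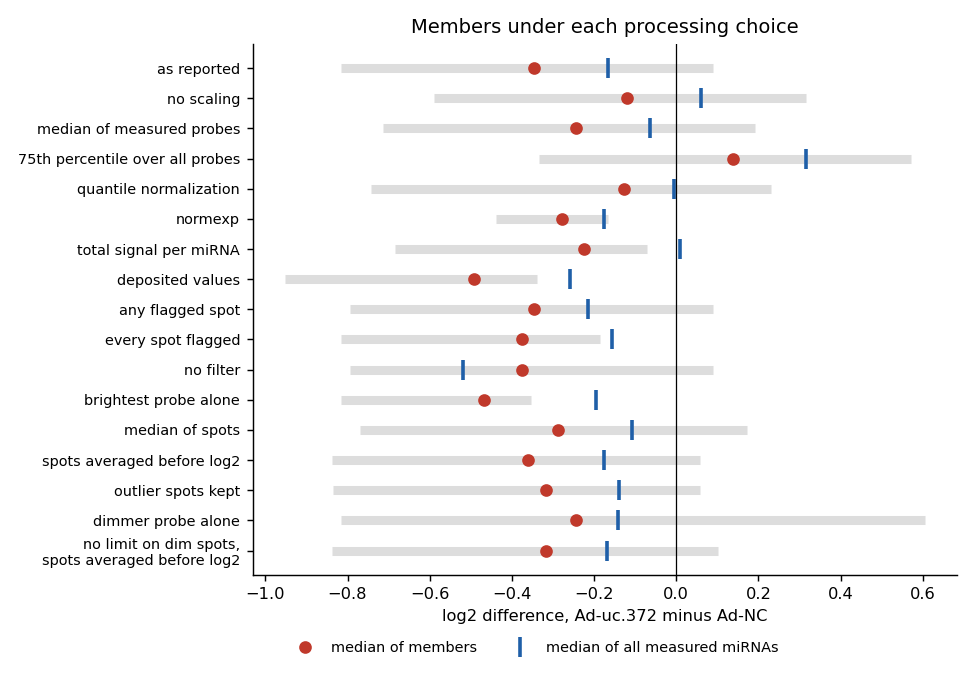
Median log2 difference of the measured members (red points) and of all measured miRNAs (blue ticks), with the range of the members (grey bars), as reported and under each of 16 other processing choices. The points lie between -0.49 and 0.14, and left of the blue tick in all rows but that without a filter, where undetected miRNAs make up most of the total.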

How the data were processed

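Spot signals of miRNA arrays were compared between HepG2 cells given Ad-NC and Ad-uc.372. The authors read each array with Agilent Feature Extraction (10.10 per the labels, 11.5.1.1 per the file headers), and the deposited intensities are background-subtracted and not normalized between arrays. The authors also deposited log2 values per miRNA, described in the paper as normalized with GeneSpring GX.

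Spots marked as outliers were dropped. Any spot dimmer than the lowest signal well above background on its array was raised to that signal before log2. Background shares were counted over all measured miRNAs or probes. No test was run and no p-value is given. The members, gene lists and comparisons were chosen with earlier results of these data known. The named miRNAs were the members, others of the same seed, opposite arms, cluster neighbours, listed cell markers and the 3 nearest in difference. The probe comparison was chosen after its values were seen. Of the miRNA names on the array, 2248 of 2549 were found in RefSeq. The steps were also run on simulated arrays built from the Ad-NC spots, with known changes and spot noise added. That simulation held no shift between the arrays and no disagreement between probes of a miRNA, so it cannot speak to either. Python 3.11.15, numpy 2.4.6, pandas 2.3.3, matplotlib 3.10.9, R 4.3.3 and limma 3.58.1 (normexp, offset 50) were used.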

Additional observations from a re-analysis of the deposited data

How the results depend on the processing

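let-7b-5p was the lowest member under each of 16 alternatives (-0.95 to -0.33), of which the dimmer probe alone and the removal of the limit on dim spots were chosen after seeing the data. The members' median lay below that of all measured miRNAs in 15, and above it by 0.14 without a filter, where the unmeasured probes sit at the limit. With the 75th percentile over all probes, which adds the same amount to every miRNA, the median was 0.14. There, 2 members were lower, against 8.73% of all, and 0 were at least 1.5-fold lower, against 1.31%. That last count was also 0 with normexp, against 0.87% of all, and at 2-fold. Of all measured miRNAs, only miR-4668-5p, miR-574-3p and miR-548c-3p were at least 2-fold lower, with log2 differences of -1.85, -1.24 and -1.10. The count of members at least 1.5-fold lower was 2 with the deposited values, against 8.60%, and with the brightest probe alone, against 2.62%. With the dimmer probe alone, 1 member, let-7f-5p, was at least 1.5-fold higher, against 2.18% of all. Without scaling, 3 probes had every spot with Ad-uc.372 below every spot with Ad-NC, against 4.58% of all. With the outlier spots kept as well, there were 2 such probes, and the share of all was not counted. Among members with both probes measured, the brighter had the lower difference in 6 of 6 under 3 alternatives, against 65.0% to 69.4% of all. When every spot had to be well above background, this held in 5 of 5, against 72.4% of all miRNAs with several such probes. These overlap and probe alternatives were also chosen after seeing the data. Of the single values, 108 moved by less than their spot SD and 19 by more. Unless stated, the cause was not tested. Leaving out a replicate could not be done. No paired analysis was possible because there was a single array for each vector. Signal over background limits let-7c-5p and miR-98-5p most.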

Other observations

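LIN28 proteins recognise a GGAG motif in the hairpins of most let-7 miRNAs. The letters GGAG, searched on the RNA strand after the mature 5p arm, were found in 9 of the 12 hairpins of the family and in 18.9% of the 798 human hairpins with a listed 5p arm in RefSeq. They were not found in the hairpins of let-7a-3, let-7b and miR-98. The stretches below show the first match with 6 bases on each side, with these letters in capitals. The first match need not be the site that LIN28 binds. In MIRLET7E the bases after it differ from those shared by the other stretches, and later matches are not shown.
MIRLET7A1: ccacugGGAGauaacu
MIRLET7A2: aucaagGGAGauaacu
MIRLET7C: acccugGGAGuuaacu
MIRLET7D: ccacaaGGAGguaacu
MIRLET7E: aguugaGGAGgacacc
MIRLET7F1: uguucaGGAGauaacu
MIRLET7F2: caucuuGGAGauaacu
MIRLET7G: gguacaGGAGauaacu
MIRLET7I: cgcuguGGAGauaacu

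Of the measured members cut from hairpins without these letters alone, let-7b-5p had a log2 difference of -0.82 and miR-98-5p of -0.35. Each value rests on 1 probe, and that of miR-98-5p lay at the limit, with -0.011 from mean signals before scaling. The members cut only from hairpins with them, let-7d-5p, let-7e-5p, let-7f-5p, let-7g-5p and let-7i-5p, had values between -0.51 and 0.090. A match of letters is a description and no binding was measured.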
